A study of Mus musculus with 6 samples.

Results

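The comparison described here is that of mouse peritoneal macrophages given poly I:C with macrophages left untreated. Its members are the 2 arrays titled as poly I:C treated and the 2 titled as control, which are 4 of the 6 arrays of the series. Every cell sample was of peritoneal macrophages, phagocytes of the abdominal cavity, from the inbred mouse strain C57BL/6, cultured in DMEM with fetal bovine serum. The poly I:C samples had received 2 ug/mL for 24 h, while for the untreated samples the labels name no time in culture. An effect of time in culture was therefore not tested apart from that of treatment. The other 2 arrays came from cells given PAM, a lipopeptide recognised by TLR2, at 1 ug/mL for 24 h, and the labels of these 2 samples name the compound differently. PAM values are set beside the poly I:C values for single genes, but they come from another dose and share the same control arrays. The labels leave unsaid whether the arrays of a treatment were from different mice or culture dishes. The p-values here rest on the spread between the 2 arrays of each group, PAM included, which limma moderates with that of all genes. This spread between samples may be technical. With 2 arrays per group the number of arrays limits the precision, and the median standard error of a difference was 0.07 on the log2 scale.

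Poly I:C is a synthetic double-stranded RNA that stands in for viral RNA. It is recognised by TLR3 in endosomes, which signals through the adaptor TRIF (gene Ticam1), and by the cytosolic RNA helicases MDA5 and RIG-I, which signal through MAVS. Both routes activate the transcription factors IRF3 and NF-kB, and the type I interferon that is then secreted acts back on the cells through its receptor. PAM reaches NF-kB through the adaptor MyD88 instead. In macrophages the interferon response is known to change antigen presentation, lipid and amino acid metabolism and cell death as well as antiviral effectors.

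Values are log2 and, as deposited, relative to each probe's own median over the 6 arrays. They hold differences between arrays but no level of expression, so no gene is compared with another in level. Each array's value is given relative to the mean of the 2 control arrays, and each difference as poly I:C minus control ± its standard error (SE, n = 2 arrays per group) with an adjusted p from limma. The finest digits of the values were used to infer which probes had stood at a log2 value of 8 or above on all arrays. Such a probe was inferred for 31.3% of genes. A probe below 8 can be counted by chance, so single hits are uncertain. As a check, 94.2% of 206 ribosomal protein probes and 2.7% of 1035 olfactory receptor probes were counted. By that inference 8 of 11 macrophage markers had a probe at 8 or above, among them Adgre1, Csf1r, Cd68 and Lyz2. The same held for 1 of 11 B cell, 1 of 15 T and NK cell, 2 of 12 neutrophil, 0 of 10 mast cell and 5 of 15 mesothelial and fibroblast markers. The latter 5 were Col1a1, Col1a2, Col3a1, Dcn and Pdgfra. Because whole cultures were measured, fewer cells of a type and less RNA per cell cannot be told apart.

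A large share of the genes measured differed in RNA between the poly I:C and the control arrays. Of 19935 genes, 2421 were higher (12.1%) and 3638 lower (18.2%) at an adjusted p under 0.05 in limma, 6059 in either direction (30.4%). A change of at least 2-fold was seen for 552 of the higher genes (2.77% of all genes) and 408 of the lower ones (2.05%). These shares are the background against which the counts of each functional list are read. They also count genes with no probe inferred at 8 or above. Of the 6235 genes with such a probe, 1327 passed as higher and 2080 as lower, larger shares than over all genes. The balance turned with size: 234 genes rose and 62 fell at least 4-fold, 116 rose and 10 fell at least 8-fold, and 54 rose while 1 fell at least 16-fold. After quantile normalization of the arrays the 2-fold counts became 443 higher and 501 lower, so the excess of 2-fold increases over 2-fold decreases depended on the scaling. All 6059 genes that passed had both poly I:C arrays on one side of both control arrays. Passing the test with 2 arrays per group nearly requires this, and the share among all genes is not given. It is therefore no further evidence of change. The smallest difference that passed was 0.19 in size.

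**Figure D1:**
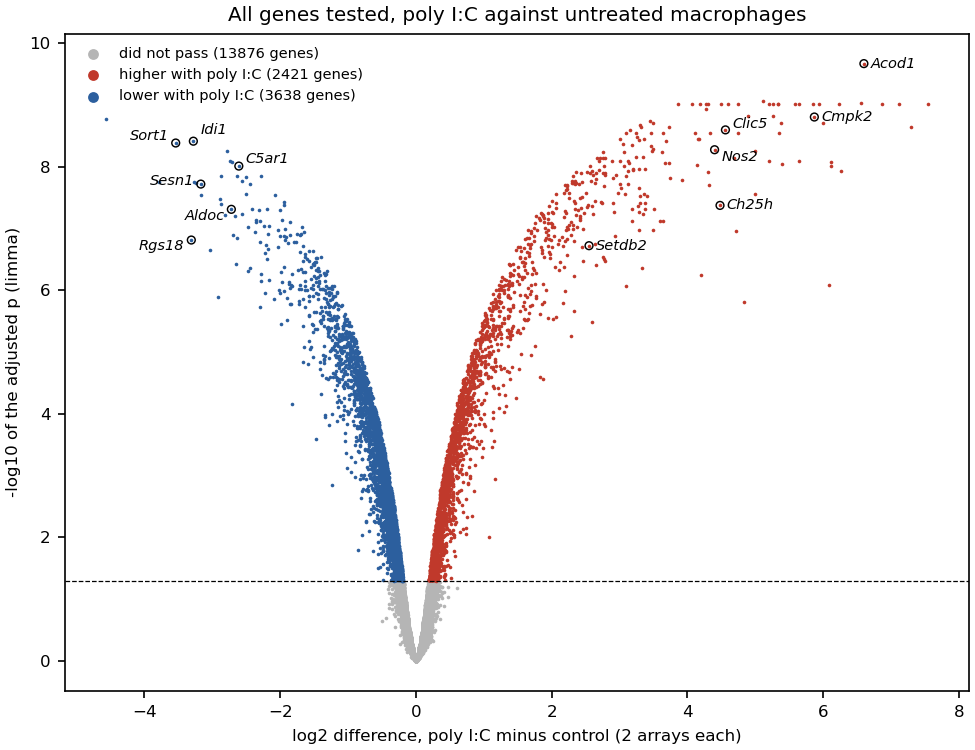
Each point is 1 of 19935 genes, with the log2 difference between the poly I:C and control arrays (2 each) on the x axis and the -log10 of the limma adjusted p on the y axis; the dashed line is the threshold of 0.05. Red points (2421 genes) passed as higher, blue points (3638) as lower, and the increases reach further from 0 than the decreases.

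The functional lists behind the rest of the text held 1680 genes, of which 1557 were measured through probes with a single gene symbol. Several textbook members, Isg15 among them, were not analysed here. Of the 49 functional lists, 24 had more members higher than lower and 23 more members lower than higher. The medians ran from 2.45 for antiviral restriction factors to -1.29 for sterol synthesis and uptake, beside a median of 0.01 over all genes. Many counts shrank when the test required a change of at least 1.5-fold. Decreases went from 22 to 5 for lysosome, 25 to 5 for endoplasmic reticulum, 21 to 4 for citric acid cycle and 15 to 0 for chromatin genes. Increases of amino acid response genes went from 22 to 7. By that test 27 lists had more members higher and 16 more members lower.

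**Figure D2:**
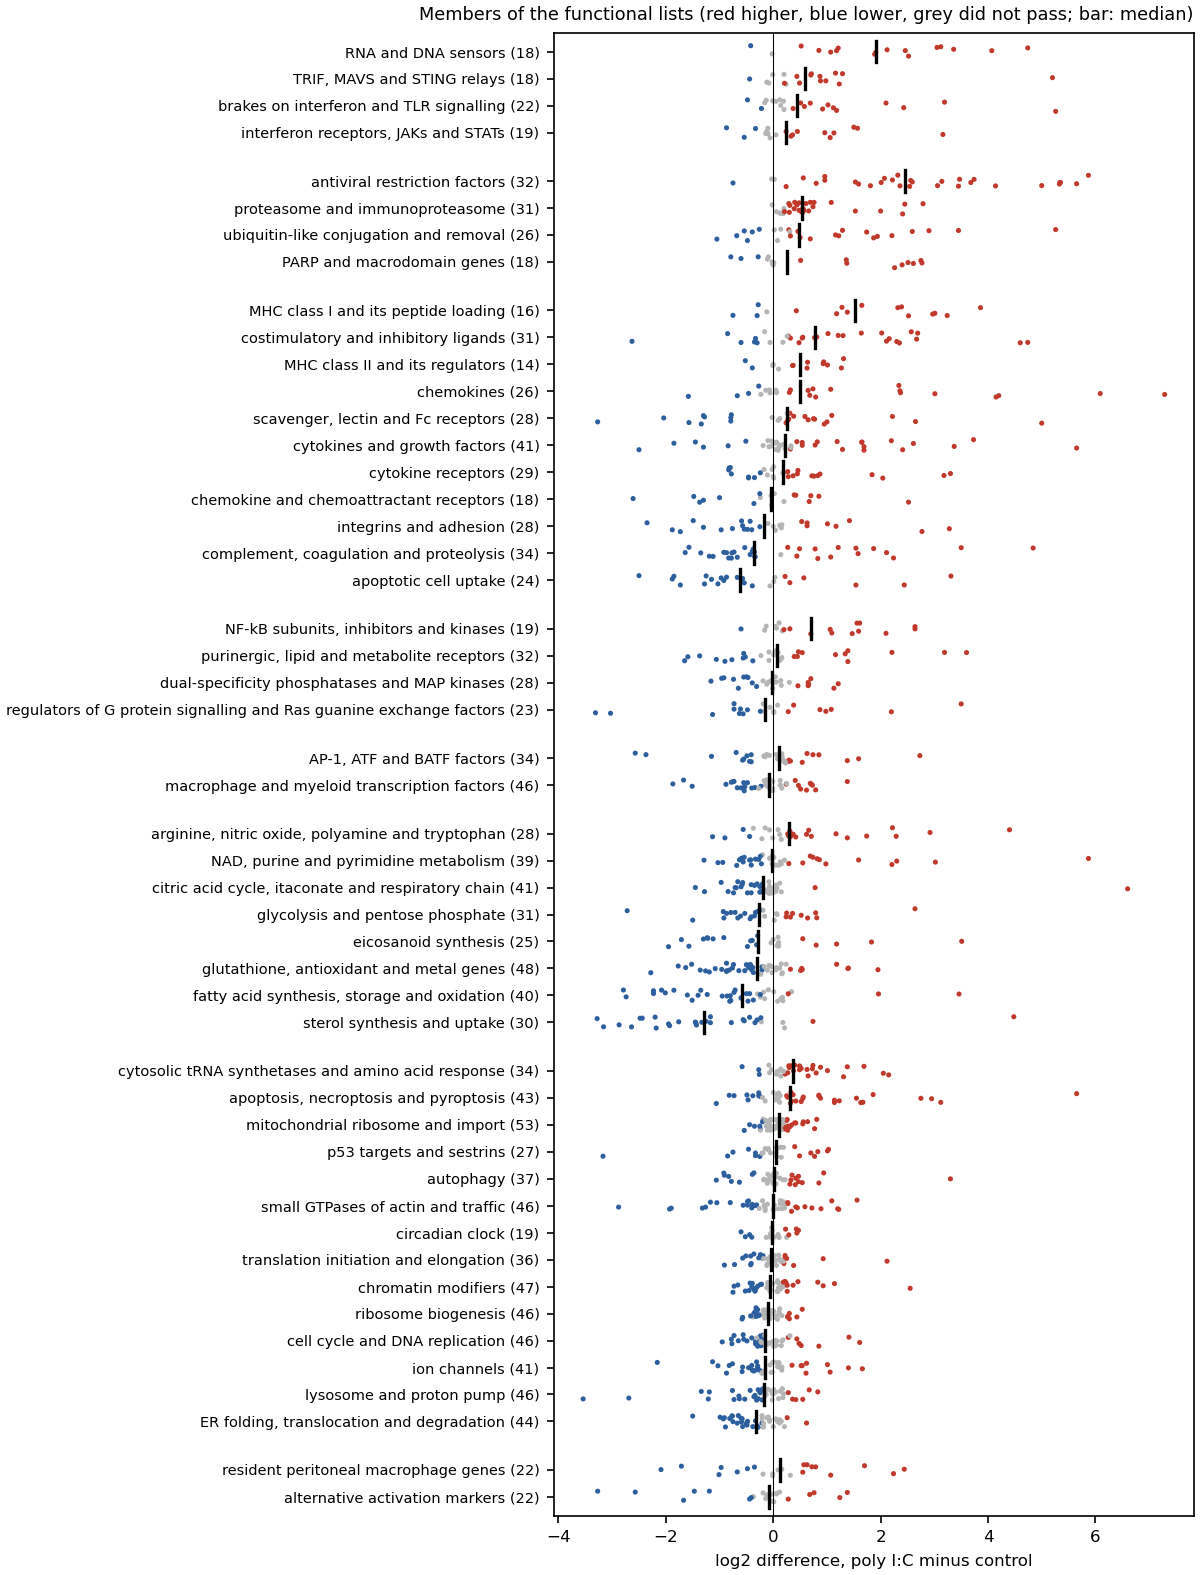
Each point is a measured member of a functional list (number of measured members in brackets), placed by its log2 difference between poly I:C and control; red members rose, blue members fell and grey members did not pass, and the black bar is the list's median. Sensors, restriction factors and MHC class I genes lie mostly to the right, and sterol, fatty acid and apoptotic cell uptake genes mostly to the left.

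The receptors that detect foreign RNA rose almost as a body. Of 18 RNA and DNA sensor genes, 16 rose, 1 fell and 1 did not pass, with a median of 1.91. Tlr3, the endosomal receptor of poly I:C itself, stood at -0.18 and 0.18 on the control arrays and at 2.42 and 2.49 on the poly I:C arrays. Both poly I:C arrays lay far above both controls, a rise of 2.46 ± 0.11 (5.49-fold; limma adjusted p = 3.3e-07). With PAM the same gene was at -0.29. The cytosolic sensors rose as well: Ifih1, which encodes MDA5, by 3.05, Ddx58, which encodes RIG-I, by 3.36, and their relative Dhx58 by 3.12. Zbp1, a sensor of Z-form nucleic acid that can start necroptosis, rose by 4.74. The exception was Tlr13, a receptor of bacterial ribosomal RNA, which fell by 0.42.

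The relays below these receptors changed less than the receptors. Of 18 measured relay genes, 12 rose and 1 fell, but the median was 0.60 and 4 members rose at least 2-fold. Ticam1, the adaptor of TLR3, was at 0.07 and -0.07 on the control arrays and at 0.27 and 0.12 on the poly I:C arrays. Its difference of 0.20 ± 0.08 did not pass in limma (adjusted p = 0.0968), and neither did those of Mavs (-0.12), Sting1 (0.24) and Irf3 (-0.08). Irf7, the interferon-inducible factor that widens interferon production, rose by 5.20. Tank (1.29), Azi2 (1.16) and Ikbke (0.88), which encode scaffolds and a kinase of the TBK1 complex, also rose. In the receptor and STAT list, 10 of 19 genes rose and 3 fell. Stat2 rose by 3.16, while Ifngr1, a chain of the interferon gamma receptor, fell by 0.87 and Ifnar1, a chain of the type I receptor, stood at -0.10 without passing.

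Among genes known to restrain these pathways, 12 of 22 rose and 2 fell, and 1 fell when any of the poly I:C or PAM arrays was left out. Usp18, which strips ISG15 from proteins and blocks the type I interferon receptor, rose by 5.26 ± 0.09. Trim30a and Trim30d, relatives with a role in limiting TLR signals, rose by 2.43 and 3.19. Socs1 rose by 1.12, whereas its relatives Socs2 (0.20) and Socs3 (0.12) did not pass. Zfp36, which encodes the mRNA-destabilising protein tristetraprolin, fell by 0.48.

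The promoter windows of the genes with the largest increases held the interferon response motif more often than promoter windows at large. RefSeq promoter windows (build GRCm38.p6) of 300 bases, 250 before the start and 50 after it, were available for 15561 of the measured genes. The motif searched was GAAA, any 2 bases and GAAA again, on either strand, the core of the interferon-stimulated response element. It was present in 3.44% of all 32851 windows. Of the 40 largest increases 28 genes had a window, and 12 of their 32 windows (37.5%) held the motif. The share was 14.8% for genes that rose at least 2-fold, 6.08% for genes that rose, 3.01% for genes that did not pass and 2.35% for genes that fell. Members of a gene family share sequence and a gene can have several windows, so these are descriptions of windows and not independent counts. The 10 largest increases all had a window, and 6 of these 10 genes held the motif. Windows of 3 of those 6 are shown to let its position be seen, with the motif in capitals, 5′ to 3′ on the strand of the gene.
Cxcl10: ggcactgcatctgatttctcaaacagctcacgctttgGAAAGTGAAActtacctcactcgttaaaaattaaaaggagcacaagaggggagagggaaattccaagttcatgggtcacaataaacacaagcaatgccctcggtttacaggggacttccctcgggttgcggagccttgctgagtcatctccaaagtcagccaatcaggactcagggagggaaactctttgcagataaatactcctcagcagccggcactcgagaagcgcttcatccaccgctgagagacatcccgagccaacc
Ifi206: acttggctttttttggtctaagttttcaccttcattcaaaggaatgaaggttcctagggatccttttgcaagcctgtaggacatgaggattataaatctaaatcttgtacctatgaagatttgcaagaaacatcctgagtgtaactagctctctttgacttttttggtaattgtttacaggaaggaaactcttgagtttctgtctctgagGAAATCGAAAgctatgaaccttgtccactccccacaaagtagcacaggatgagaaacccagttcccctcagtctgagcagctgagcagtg
Ifit3: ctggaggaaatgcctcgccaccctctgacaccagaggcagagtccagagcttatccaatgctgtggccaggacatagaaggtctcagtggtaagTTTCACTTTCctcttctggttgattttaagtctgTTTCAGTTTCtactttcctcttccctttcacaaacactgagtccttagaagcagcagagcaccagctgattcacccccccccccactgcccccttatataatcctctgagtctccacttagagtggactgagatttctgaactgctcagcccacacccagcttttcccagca
The Cxcl10 window (chr5:92348840-92349139, minus strand) had the motif from 213 to 204 bases before the start, and the Ifi206 window (chr1:173491269-173491568, minus strand) from 40 to 31 bases before it. The Ifit3 window (chr19:34583279-34583578, plus strand) had it at 156 to 147 and again at 122 to 113 bases before the start, both times on the opposite strand. All 3 genes rose strongly, Cxcl10 by 7.29, Ifi206 by 7.12 and Ifit3 by 6.86. A kB motif (GGG, any 3 bases and TTCC, either strand) was found in 5.56% of all windows and in 9 of 22 windows (40.9%) of the NF-kB list. An amino acid response motif (TGATGNAA, either strand) was found in 3.97% of all windows and in 8 of 30 windows (26.7%) of the tRNA synthetase and amino acid response list. A STAT motif (TTCNNNGAA, which reads the same on both strands) was in 8.30% of all windows and in 9.77% of those of genes that rose at least 2-fold.

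**Figure D3:**
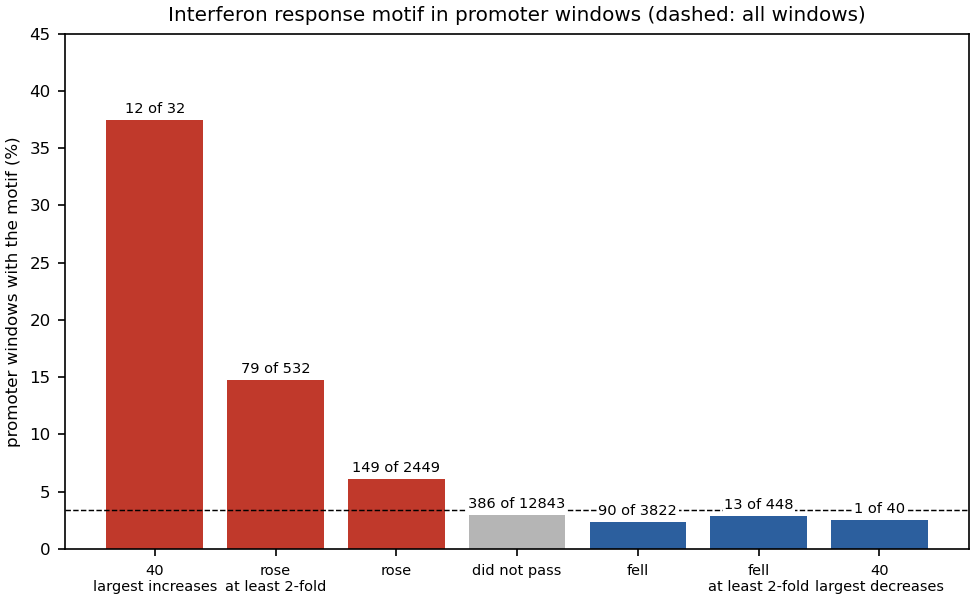
Bars give the percentage of 300-base promoter windows that hold the interferon motif, by how the gene changed with poly I:C (red rose, grey did not pass, blue fell; classes of larger change lie within the broader ones), with the number of windows above each bar. The dashed line is the 3.44% of all windows, and the share climbs from 6.08% among genes that rose to 37.5% among the 40 largest increases.

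Antiviral effectors formed the list with the highest median. Of 32 restriction factors, 29 rose, and Ifitm2, of a family that blocks virus entry, was the member that fell (-0.75). Cmpk2, a mitochondrial nucleotide kinase, had control arrays at 0.00 and 0.00 and poly I:C arrays at 5.87 and 5.87. The arrays of each group nearly coincided, and the rise was 58.5-fold (limma adjusted p = 1.56e-09) beside a difference of 1.16 with PAM. The PARP family divided by member. Parp10 (2.77), Parp11 (2.75), Parp12 (2.51), Parp14 (2.40) and Parp9 (2.26) rose together with Dtx3l (2.61), whose protein is the partner of PARP9. Parp1, the DNA damage enzyme, fell by 0.79, and Parp2 (-0.02), Parp6 (0.01) and Parp16 (-0.01) did not pass.

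Proteasome genes rose in the main. Of 31 genes, 25 rose and the other 6 did not pass, with a median of 0.53. The largest increases were those of the immunoproteasome subunits, which replace the standard catalytic subunits and change the peptides cut for MHC class I: Psmb10 rose by 2.79, Psmb9 by 2.45 and Psmb8 by 2.41. The activator subunits Psme2 and Psme1 rose by 2.00 and 1.53. Psmb5, the standard subunit that Psmb8 replaces, differed by 0.15 ± 0.06 and did not pass. When a change of at least 1.5-fold was required of the test, 6 members still passed, so most members moved by less than these subunits. Of 26 genes of ubiquitin-like conjugation, 16 rose and 6 fell. Ube2l6, Herc6 and Uba7, the enzymes that attach ISG15, rose by 2.90, 3.45 and 2.21, and the giant ubiquitin ligase gene Rnf213 by 2.59. Otulinl (-1.05) and Otulin (-0.48), the latter a deubiquitinase of linear chains, fell.

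Several of the 40 largest increases were of genes seldom counted as interferon genes. Clic5, of the chloride intracellular channel family, stood at 0.11 and -0.11 on the control arrays and at 4.54 and 4.58 on the poly I:C arrays. That is a 23.6-fold rise (limma adjusted p = 2.52e-09), while the PAM arrays were at -0.24 and -0.09, close to the controls. Cst7, which encodes the protease inhibitor cystatin F, rose by 5.58, with 2.83 under PAM. Phf11a, a PHD finger protein gene, rose by 4.71 and was at 0.22 with PAM. H2-M2, a nonclassical MHC class I gene, rose by 5.12 and Ly6i, of the Ly6 surface protein family, by 5.26, with PAM at 5.96 and 3.81. Clec4e, the receptor Mincle for mycobacterial glycolipid, rose by 5.00 and was at 5.52 with PAM. Poly I:C exceeded PAM by 4.73 for Clic5 and 2.75 for Cst7 (limma adjusted p = 3.25e-09 and 5.79e-08), and stood below it for H2-M2 (-0.84, adjusted p = 9.68e-06) and Clec4e (-0.52, adjusted p = 0.00722).

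Fewer of the microRNA genes passed than of all genes, and those named here were chosen after their values were seen. Of 272 microRNA genes measured, 12 were higher (4.41%) and 17 lower (6.25%), below the 12.1% and 18.2% of all genes, and 1 changed at least 2-fold. How many of these genes had a probe at 8 or above is not given, so the lower shares are not read as a weaker response. Such probes read RNA from the precursor's locus and do not show how much mature microRNA the cells held. The gene that changed at least 2-fold was Mir155. Its mature products are shown with bases 2 to 8, the seed that pairs with targets, in capitals. Beside them are products of 4 other loci that passed.
miR-155-5p: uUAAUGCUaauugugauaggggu
miR-155-3p: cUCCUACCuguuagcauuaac
miR-146a-5p: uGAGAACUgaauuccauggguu
miR-221-3p: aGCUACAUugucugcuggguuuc
miR-222-3p: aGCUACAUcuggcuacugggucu
miR-181b-5p: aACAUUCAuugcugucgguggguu
Sequences are from RefSeq (GRCm38.p6), with miR-155-5p at chr16:84714143-84714165 on the plus strand. Mir155 arrays stood at 0.04 and -0.04 for control and at 1.98 and 2.57 for poly I:C, clear of each other, a rise of 2.28 ± 0.16 (limma adjusted p = 5.57e-06). PAM arrays of Mir155 were higher still, at 3.78 and 3.82, and the difference between the ligands was -1.52 ± 0.16 (limma adjusted p = 7.24e-05). Mir146, the locus of miR-146a, a known brake on TLR signalling, rose by 0.47 ± 0.08. Mir221 and Mir222, neighbours on the X chromosome whose 3p products share the seed GCUACAU, fell together (-0.61 and -0.66) and were at 0.12 and 0.09 with PAM. Mir181b-1 fell by 0.98, with -0.92 under PAM.

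Among secreted factors, chemokine genes rose more often than they fell. Of 26 chemokine genes, 15 rose and 4 fell. Cxcl9 (4.20) and Cxcl11 (3.01), ligands of CXCR3, a receptor carried by T cells, rose, and Ccl12, a monocyte attractant, rose by 4.15 while it was at -0.11 with PAM. Ccl5 rose by 6.09 ± 0.31, with a wide error because its control arrays differed, at 0.63 and -0.63. Ccl3, a monocyte attractant, fell by 0.27 and was at 2.23 with PAM. Cxcl1 (-0.06) and Cxcl5 (-0.23), attractants of neutrophils, did not pass. Ccl6 fell by 1.58.

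Of 41 cytokine and growth factor genes, 18 rose, 6 fell and 17 did not pass. Il15, which keeps natural killer and memory T cells alive, was at -0.03 and 0.03 on the control arrays and at 2.48 and 2.75 on the poly I:C arrays. The receptor chain that presents it on the cell surface moved with it, Il15ra lying at 0.09 and -0.09 on the control arrays and 3.19 and 3.41 on the poly I:C arrays. No array of one group reached into the other for either gene, and the rises were 6.12-fold and 9.85-fold (limma adjusted p = 5.89e-08 and 2.96e-08). With PAM, Il15 fell (-1.19, limma adjusted p = 1.2e-05), and Il15ra was at 0.29. Natural antagonists rose too: Il18bp, which captures interleukin 18, by 3.37 and Il1rn, which blocks the interleukin 1 receptor, by 2.41. Inhba, a subunit of activin, rose by 3.73, and Tnf by 2.20 beside 4.43 with PAM. Il6 (0.33 ± 0.11), Il10 (-0.03 ± 0.08), Il12b (0.11 ± 0.09), Il23a (0.09 ± 0.15) and Ifnb1 (0.05 ± 0.07) did not pass at 24 h. The growth factors Hgf (-1.45), Igf1 (-1.30) and Pdgfa (-0.84) fell.

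Of 29 cytokine receptor genes, 14 rose and 8 fell. Il21r rose by 3.18, Tnfrsf14, a ligand of BTLA, by 2.04, and Il13ra1 by 1.84. Several receptor genes of the TGF-beta family were among the decreases, namely Tgfbr1 (-0.82), Bmpr2 (-0.78), Bmpr1a (-0.46) and Tgfbr2 (-0.46). Il6st, the shared chain gp130, fell by 0.80. Csf1r, the receptor on which macrophages depend, differed by -0.17 ± 0.06 and did not pass.

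The Fc receptors, which bind antibody, moved in both directions. Fcgr1, the high-affinity receptor for IgG, was at -0.05 and 0.05 on the control arrays and 2.70 and 2.59 on the poly I:C arrays. Fcgr4, another activating receptor, was at 0.02 and -0.02 and 2.19 and 2.25. Both rose, by 2.65 ± 0.07 and 2.22 ± 0.07 (limma adjusted p = 1.27e-08 and 2.25e-08), whereas they stood at -1.72 and -2.23 with PAM. The difference between the ligands was 4.37 ± 0.07 for Fcgr1 and 4.45 ± 0.07 for Fcgr4 (limma adjusted p = 1.64e-09 and 1.62e-09). Fcgr3, a low-affinity activating receptor, fell by 2.04. Over the list of 28 scavenger, lectin and Fc receptors, 15 rose and 9 fell. Cd14, the coreceptor of lipopolysaccharide, fell by 1.28 with poly I:C and was at 2.39 with PAM, a difference of -3.68 ± 0.08 (limma adjusted p = 4.58e-09). Mrc1, the mannose receptor, Scarb1, which takes up cholesterol from HDL, and Clec7a, the receptor Dectin-1 for fungal glucan, fell (-3.27, -1.34 and -1.30).

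Genes of antigen presentation and costimulation rose. Of 31 costimulatory and inhibitory ligand genes, 21 rose and 6 fell, with a median of 0.77. Cd86, a ligand of CD28 on T cells, stood at 4.73 and 4.75 on the poly I:C arrays against 0.00 and 0.00 on the controls, and PAM arrays stood at 0.35 and 0.47. Poly I:C thus exceeded PAM by 4.33 ± 0.07 (limma adjusted p = 1.64e-09). Slamf9, of the SLAM receptor family, rose by 2.69, Lgals9, which encodes galectin-9, by 2.57, and Cd274, which encodes PD-L1, by 2.67. Vsir, which encodes the inhibitory receptor VISTA, went the other way and fell by 2.63, with -2.37 under PAM. Of 16 listed genes of MHC class I and its peptide loading, a list that did not hold H2-M2, 12 rose, among them H2-Q4 (3.86), and Calr, Canx and Pdia3, chaperones of the endoplasmic reticulum that help load peptide, fell (-0.75, -0.30 and -0.28). Of 14 MHC class II genes, 9 rose and 2 fell. H2-Aa, H2-Eb1 and Cd74, the invariant chain, rose by 1.01, 0.94 and 0.93, and were at 0.03, -0.17 and -0.04 with PAM. Marchf1, a ligase that removes MHC class II from the surface, fell by 0.39.

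The machinery for taking up dead cells fell in the main. Of 24 genes, 6 rose and 15 fell (62.5%, beside 18.2% of all genes), with a median of -0.62. A receptor and its ligands parted. Axl, a receptor tyrosine kinase for dying cells, was at 0.03 and -0.03 on the control arrays and 3.30 and 3.33 on the poly I:C arrays, a rise of 9.94-fold (limma adjusted p = 2.26e-09). Gas6, its ligand, was at 0.15 and -0.15 and -1.94 and -1.75, and Pros1, the related protein S, at -0.04 and 0.04 and -2.46 and -2.54. Gas6 fell 3.6-fold and Pros1 5.65-fold (limma adjusted p = 1.65e-06 and 1.48e-08). Mertk, the related receptor, rose by 0.22, and the other family member Tyro3 was at 0.01 without passing. With PAM, Axl was at -0.34 and Mertk at -1.23, while Gas6 and Pros1 stood at -1.73 and -1.44. Timd4, a receptor for phosphatidylserine, rose by 2.44. The integrin subunits Itgb5 (-1.88) and Itgb3 (-1.73), the receptor Lrp1 (-1.28) and the engulfment gene Dock1 (-1.25) fell.

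Receptors for inflammatory attractants, adhesion molecules and proteases moved in both directions. Of 18 attractant receptor genes, 6 rose and 7 fell. C5ar1, the receptor of the complement fragment C5a, was at -0.03 and 0.03 on the control arrays, at -2.60 and -2.62 on the poly I:C arrays and at 0.06 and -0.01 on the PAM arrays. It fell 6.1-fold with poly I:C (limma adjusted p = 9.71e-09), and the ligands differed by -2.64 ± 0.07 (limma adjusted p = 1.11e-08). S1pr1, a sphingosine phosphate receptor of cell exit from tissue, fell by 1.37 and was at 0.76 with PAM. Ccrl2, which holds chemerin on the surface, rose by 2.52. In the integrin and adhesion list 8 of 28 rose and 14 fell. Icam1 (3.28), Vcam1 (2.77) and Itgb7 (1.42) rose, and Itga6 (-2.35), Itgam (-1.49) and Itgax (-1.30) fell. In the complement, coagulation and proteolysis list 14 of 34 rose and 19 fell. Cfb, factor B of the alternative pathway, rose by 4.84 ± 0.27, and Serpinb9, an inhibitor of granzyme B, by 3.50. F13a1, a clotting transglutaminase, and Thbd, which encodes thrombomodulin, fell (-1.64 and -1.35).

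Within the cell, the NF-kB list rose and the MAP kinase list did not lean either way. Of 19 NF-kB genes, 12 rose and 1 fell, with the inhibitors Nfkbie (2.64) and Nfkbia (2.10) and the subunits Nfkb2 (1.59) and Relb (1.56) among the increases. Of 28 phosphatase and MAP kinase genes, 7 rose and 10 fell. Dusp1, a phosphatase of p38 and JNK, rose by 1.21, and Dusp6, a phosphatase of ERK, fell by 1.16. Regulators of Ras and of G proteins were among the signalling genes with large shifts. Rasgrp1, an activator of Ras, rose by 3.50 ± 0.13 while its relative Rasgrp3 fell by 3.03, and the PAM values were 4.51 and -2.80. Rgs18, which ends G protein signals, fell by 3.31. Prkcb, protein kinase C beta, was at -0.02 and 0.02 on the control arrays, at -2.51 and -2.64 on the poly I:C arrays and at -0.34 and -0.24 on the PAM arrays. The poly I:C arrays stood low for Prkcb and the PAM arrays close to control, and the ligands differed by -2.28 ± 0.07 (limma adjusted p = 4.29e-08).

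Of 32 receptors and enzymes for nucleotides, lipids and metabolites, 11 rose and 10 fell. Gpr84, a receptor of medium-chain fatty acids, and Hcar2, the niacin receptor, rose by 3.60 and 3.19. P2ry14, a receptor of UDP-glucose, rose by 2.21 and was at 0.37 with PAM. P2ry13, an ADP receptor, rose by 1.39, whereas P2ry1, another ADP receptor, fell by 1.65. Cnr2, the cannabinoid receptor of immune cells, fell by 1.59.

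Transcription factor genes changed in both directions. Of 34 AP-1, ATF and related factors, 10 rose and 10 fell, and of 46 macrophage and myeloid factors, 10 rose and 16 fell. Batf2, an interferon-inducible factor, rose by 2.73 ± 0.09. Myc fell while Max and Mxd1 rose, and Mnt, whose protein also binds Max, did not pass (-0.17). Myc itself was at -0.03 and 0.03 on the control arrays and -2.43 and -2.30 on the poly I:C arrays, and fell 5.15-fold (limma adjusted p = 1.13e-07). Its partner Max was at -0.06 and 0.06 and 1.42 and 1.33, and Mxd1, whose protein competes with Myc for Max, at 0.02 and -0.02 and 1.67 and 1.51. Both rose, by 1.38 and 1.59 (limma adjusted p = 1.31e-06 and 2.96e-06). PAM values were -1.33 for Myc, -0.07 for Max and -0.17 for Mxd1, and the ligands differed by 1.45 for Max and 1.76 for Mxd1 (limma adjusted p = 8.65e-07 and 1.38e-06). Klf4, a factor of monocyte differentiation, rose by 1.38. Klf7 fell by 1.87 and was at 0.72 with PAM. Egr2, Pparg and Mef2c fell (-2.57, -1.67 and -1.51).

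Chromatin modifier genes changed in both directions, with 11 of 47 higher (23.4%, beside 12.1% of all genes) and 15 lower (31.9%, beside 18.2%). Of the 6235 genes with a probe at 8 or above, 1327 were higher and 2080 lower. Beside those genes the shares of the list do not stand out. Fewer members were higher when either poly I:C replicate was left out, and fewer were lower without poly I:C replicate 2. The largest change was that of Setdb2, of a family of histone H3 lysine methyltransferases. Its arrays stood at -0.17 and 0.17 for control, 2.50 and 2.59 for poly I:C and 0.05 and 0.01 for PAM, a rise of 5.84-fold with poly I:C (limma adjusted p = 1.89e-07). The ligands differed by 2.51 ± 0.11 for this gene (limma adjusted p = 2.13e-07). Arid5a, an RNA-binding protein that steadies cytokine transcripts, rose by 1.14. The circadian clock list held 5 higher and 4 lower of 19, and 2 higher without poly I:C replicate 2.

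The sterol list had the lowest median of the 49 lists, and the fatty acid list the lowest but 2 (-0.59). Cholesterol is made from acetyl-CoA by a long series of enzymes that SREBP2 controls, and fatty acids by enzymes that SREBP1 and LXR control. Of 30 measured genes of sterol synthesis and uptake, 25 fell, 18 of them at least 2-fold, and 2 rose. Idi1, an isomerase early in the pathway, was at -0.03 and 0.03 on the control arrays, -3.33 and -3.22 on the poly I:C arrays and -0.33 and -0.26 on the PAM arrays. Cyp51, a demethylase late in it, was at -0.09 and 0.09, -2.91 and -2.82 and -0.27 and -0.27 in the same order, and Sc5d, a desaturase near the end, at -0.04 and 0.04, -2.39 and -2.50 and -0.36 and -0.31. In all 3 genes the poly I:C arrays stood far below the other 4. Poly I:C minus PAM was -2.98 ± 0.07 for Idi1, -2.60 ± 0.08 for Cyp51 and -2.10 ± 0.07 for Sc5d (limma adjusted p = 7.87e-09, 3.06e-08 and 5.98e-08). Stard4, a carrier of cholesterol between membranes, fell by 2.64. Ch25h, which makes 25-hydroxycholesterol, an inhibitor of SREBP processing, went against the list. Its control arrays were at 0.13 and -0.13 and its poly I:C arrays at 4.24 and 4.73, a rise of 22.4-fold (limma adjusted p = 4.21e-08), and it was at 3.31 with PAM.

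Fatty acid genes followed the same course. Of 40 measured, 26 fell and 3 rose. Scd2 and Scd1, the desaturases that make oleate, fell (-2.79 and -2.74), and were at 0.22 and 0.12 with PAM. Fasn, fatty acid synthase, was at 0.01 and -0.01 on the control arrays, -2.05 and -2.10 on the poly I:C arrays and 0.28 and 0.24 on the PAM arrays. Poly I:C was thus low and PAM was not, a difference of -2.34 ± 0.06 (limma adjusted p = 1.69e-08). Elovl6, an elongase, and Fads1, a desaturase of polyunsaturated chains, fell (-2.23 and -2.01), with -0.40 and -0.14 under PAM. Lpin1, a phosphatase of triglyceride synthesis, fell by 2.23 with poly I:C and stood at -1.84 with PAM. Fabp3, a fatty acid carrier, and Lpcat2, which remodels phospholipid, rose by 3.46 and 1.96. A sterol response motif (TCACNCCA, either strand) was present in 4 of 34 promoter windows of the sterol list (11.8%) and in 4.36% of all windows. It was not particular to that list, being present in 4 of 32 windows (12.5%) of the 40 largest increases and in 3.95% of windows of genes that fell. Of the 10 largest decreases of the list, 6 genes had a window and 1 of these held that motif. It was Hmgcs1, a synthase early in the pathway, whose window is shown with the motif in capitals.
Hmgcs1: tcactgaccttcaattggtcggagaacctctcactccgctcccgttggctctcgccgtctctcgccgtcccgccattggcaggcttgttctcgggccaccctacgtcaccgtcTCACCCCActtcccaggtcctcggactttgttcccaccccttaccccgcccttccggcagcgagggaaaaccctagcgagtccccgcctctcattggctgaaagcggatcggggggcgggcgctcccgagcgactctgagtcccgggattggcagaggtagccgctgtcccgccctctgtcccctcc
This window lies at chr13:119690101-119690400 on the plus strand of GRCm38.p6, with the motif from 137 to 130 bases before the start. Hmgcs1 fell by 2.20 with poly I:C and was at -0.53 with PAM.

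**Figure D4:**
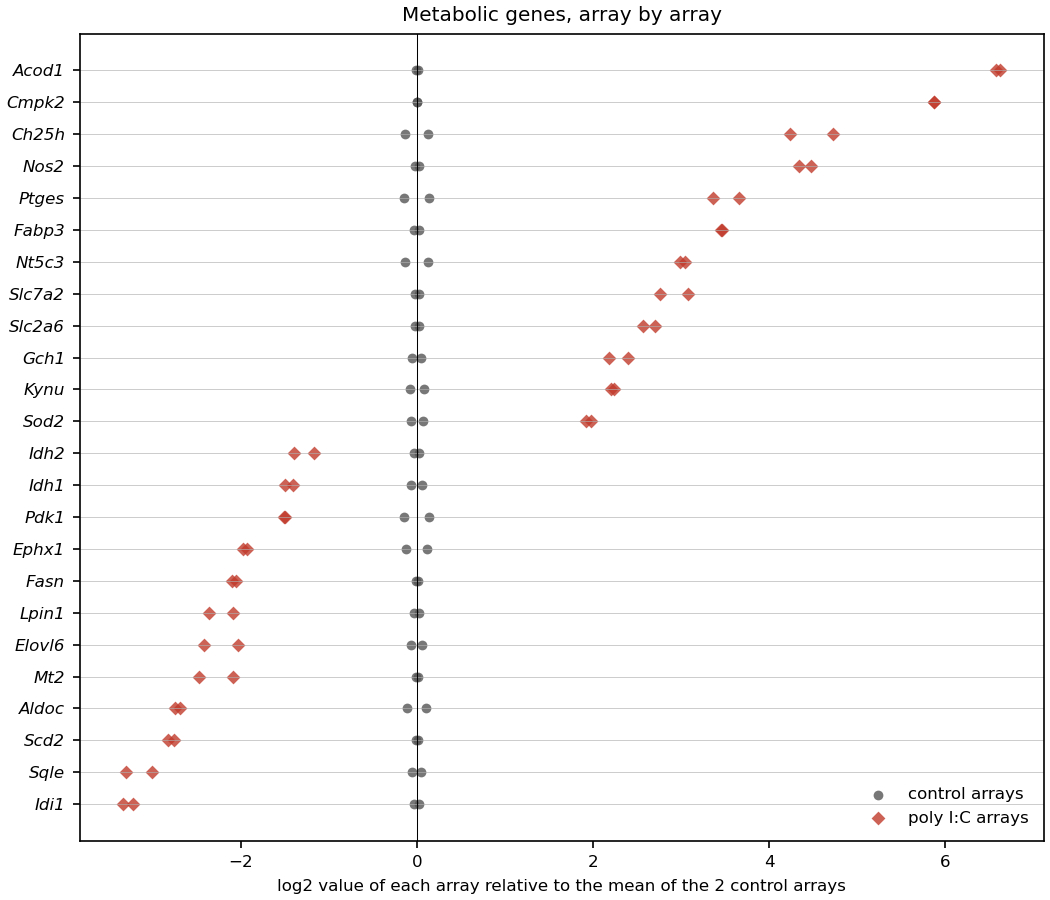
Each row is a metabolic gene, and the x axis is the log2 value of each control array (grey circles) and each poly I:C array (red diamonds) relative to the mean of the 2 control arrays. The 2 arrays of a group lie close together, Acod1, Cmpk2, Ch25h and Nos2 are the genes furthest to the right, and Idi1, Sqle and the desaturase gene Scd2 are furthest to the left.

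Energy metabolism changed at particular steps. Of 41 genes of the citric acid cycle and respiratory chain, 21 fell and 2 rose, with most decreases under 2-fold. Acod1, which draws aconitate out of the cycle to make itaconate, rose by 6.60 ± 0.06, and PAM gave the same difference, 6.60. Genes of isocitrate dehydrogenases fell, apart from Idh3b (-0.04), which did not pass. Idh1 stood at -0.06 and 0.06 on the control arrays and -1.40 and -1.50 on the poly I:C arrays, and Idh2 at -0.03 and 0.03 and -1.17 and -1.39. These are drops of 2.73-fold and 2.43-fold (limma adjusted p = 1.16e-06 and 4.42e-06), beside -0.62 and 0.00 with PAM. Idh3a (-0.97), Idh3g (-0.41) and Fh1, which encodes fumarase (-0.84), fell as well, and Cs (-0.04) and Sdha (-0.14) did not pass. In glycolysis and the pentose phosphate pathway 9 of 31 rose and 17 fell. The hexose transporter gene Slc2a6 rose by 2.64. Aldoc, an aldolase, fell by 2.72, and Tkt and Taldo1, the enzymes of the nonoxidative pentose phosphate branch, fell (-0.93 and -0.92) beside -0.13 and -0.14 with PAM.

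Genes of arginine, nitric oxide, polyamine and tryptophan metabolism rose more often than they fell. Of 28 genes, 16 rose and 4 fell. Nos2, the inducible nitric oxide synthase, was at -0.02 and 0.02 on the control arrays, 4.34 and 4.47 on the poly I:C arrays and 1.29 and 1.00 on the PAM arrays, so that both ligands stood above control and poly I:C above PAM (difference 3.26 ± 0.10, limma adjusted p = 3.23e-08). Slc7a2, the arginine transporter that feeds it, rose by 2.92 and was at 4.83 with PAM. Gch1, which makes its cofactor tetrahydrobiopterin, rose by 2.29, whereas Qdpr, which recycles that cofactor, fell by 0.90. Arg1, the arginase that competes for arginine, differed by -0.37 ± 0.15 and did not pass (limma adjusted p = 0.0967). Kynu, kynureninase of tryptophan breakdown, rose by 2.22 ± 0.08 and was at -0.17 with PAM.

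Nucleotide genes moved in both directions. Of 39, 12 rose and 15 fell. The increases included the pyrimidine nucleotidase Nt5c3 (3.02), the deoxycytidine kinase Dck (2.30), the purine phosphorylase Pnp (2.21) and Samhd1, a hydrolase that starves viruses of deoxynucleotides (1.59). Dck and Samhd1 were at -0.17 and -0.74 with PAM. Cad, which starts pyrimidine synthesis, and Impdh1, which makes guanine nucleotides, fell (-0.94 and -0.63). Hprt, a purine salvage gene often used as a reference in PCR, differed by -1.03 ± 0.07 and so fell (limma adjusted p = 6.21e-06). Actb, another common reference, differed by 0.11 ± 0.06 and did not pass (limma adjusted p = 0.26).

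Metal handling and antioxidant genes mostly fell. Of 48, 26 fell and 8 rose. The metallothioneins Mt2 and Mt1, which bind zinc and copper, fell (-2.28 and -1.77), and were at 0.54 and -0.25 with PAM. Among the genes of iron handling in the list, Tfrc, the transferrin receptor (-1.52), Trf, transferrin (-1.63), and Slc40a1, the iron exporter ferroportin (-1.36), fell. The ferritin genes Fth1 (0.16) and Ftl1 (-0.11), Ireb2 (-0.02), Heph (0.12) and the heme oxygenase gene Hmox1 (-0.08) did not pass. Sod2, the superoxide dismutase of mitochondria, rose by 1.95. Slc7a11, the cystine carrier, rose by 1.39 with poly I:C and was at 5.14 with PAM, and Lcn2, which binds bacterial iron carriers, rose by 0.54 and was at 5.93. In the eicosanoid list 5 of 25 rose and 13 fell. Ptgs2 and Ptges, the enzymes that lead to prostaglandin E2, rose by 1.83 and 3.51. Tbxas1, which makes thromboxane, Hpgds, which makes prostaglandin D2, and Lta4h, which makes leukotriene B4, fell (-1.57, -1.23 and -1.22).

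Genes of the amino acid response mostly rose while more of those of protein folding in the endoplasmic reticulum fell than rose. Of 34 genes of tRNA synthetases and the amino acid response, 22 rose and 3 fell (1 without poly I:C replicate 2), with a median of 0.36. Ddit3, which encodes the stress factor CHOP, was at -0.14 and 0.14 on the control arrays, 2.11 and 1.99 on the poly I:C arrays and -0.16 and -0.22 on the PAM arrays, a rise of 2.05 ± 0.10 with poly I:C (limma adjusted p = 4.26e-07). Trib3, a pseudokinase induced by ATF4, rose by 2.15, and Asns, which makes asparagine, by 1.69. Wars, the tryptophan tRNA synthetase, an interferon target, rose by 1.38. Psat1 (-0.07), Psph (-0.03) and Shmt2 (0.07) did not pass, and the tRNA synthetase gene Farsb stood at -0.58. Of 44 genes of folding and degradation in the endoplasmic reticulum, 25 fell and 2 rose, and 1 rose when control replicate 1, poly I:C replicate 2 or either PAM array was left out. Sdf2l1, a chaperone cofactor, was at -0.01 and 0.01 on the control arrays, -1.46 and -1.55 on the poly I:C arrays and 0.27 and 0.40 on the PAM arrays. It fell 2.83-fold with poly I:C and the ligands differed by -1.84 ± 0.07 (limma adjusted p = 5.81e-07 and 1.54e-07). Hyou1, a chaperone, Uggt1, which senses misfolded glycoproteins, and Pdia6, a disulfide isomerase, fell (-0.93, -0.99 and -0.81), with PAM at 0.88, 0.26 and 0.43. Eif2ak3, the stress sensor PERK, fell by 0.91, whereas Eif2ak2, the double-stranded RNA sensor PKR that acts on the same initiation factor, rose by 2.12.

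Of 46 lysosome and proton pump genes, 22 fell and 6 rose, and 14 fell without poly I:C replicate 2. Sort1, which encodes the sorting receptor sortilin, was at -0.08 and 0.08 on the control arrays, -3.52 and -3.56 on the poly I:C arrays and -0.34 and -0.24 on the PAM arrays. The poly I:C arrays stood far below the other 4, a fall of 11.6-fold (limma adjusted p = 4.11e-09), and the ligands differed by -3.25 ± 0.08 (limma adjusted p = 7.87e-09). Atp6v0a1, a subunit of the proton pump, fell by 2.69. Igf2r, which carries enzymes to the lysosome, fell by 1.34 beside -0.02 with PAM. Lamp1 (-0.01), Ctsb (-0.01) and Ctsd (-0.13), common lysosomal markers, did not pass. In the autophagy list 11 of 37 rose and 8 fell, with its core genes divided. Atg13 (0.85), Atg16l1 (0.54) and Atg4a (0.47) rose, and Atg5 (-0.01), Becn1 (0.02) and Ulk1 (-0.10) did not pass. Irgm1, a GTPase of pathogen vacuoles, rose by 3.30, and Gabarapl1 fell by 0.91. Among 46 small GTPases and their regulators, 12 rose and 16 fell, and 7 rose without poly I:C replicate 2. Rab32 rose by 1.56, and Rab3il1, an exchange factor, fell by 2.88. Of 41 ion channel genes, 9 rose and 17 fell, with Lrrc8c, a subunit of the volume-regulated anion channel, at 1.66 and the potassium channel Kcnj2 at -2.16.

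Protein synthesis and cell division genes changed little in size. Of 36 translation factors, 7 rose and 12 fell, but without poly I:C replicate 1, and likewise without replicate 2, the counts were 3 and 7. Of 46 ribosome biogenesis genes, 6 rose and 12 fell, with 3 and 6 left without poly I:C replicate 1. In the mitochondrial ribosome and import list, 16 of 53 rose and 6 fell. Its increases numbered 9 without poly I:C replicate 1 and 8 without replicate 2, and its decreases 3 without control replicate 2. In the cell cycle list 7 of 46 rose (15.2%, beside 12.1% of all genes) and 17 fell (37.0%, beside 18.2%). The decreases were fewer when control replicate 2 or either poly I:C replicate was left out. Ccnd2 and Ccne1, cyclins of entry into the cycle, rose by 1.61 and 1.41 and were at -0.08 and 0.21 with PAM, while the proliferation markers Mki67 (-0.16) and Plk1 (-0.22) did not pass.

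Cell death genes rose more often than they fell. Of 43 genes of apoptosis, necroptosis and pyroptosis, 24 rose and 9 fell. Mlkl, which perforates the membrane in necroptosis, was at -0.08 and 0.08 on the control arrays and 2.91 and 3.0 on the poly I:C arrays, a rise of 7.74-fold (limma adjusted p = 1.37e-08). Casp4, the caspase that senses cytosolic lipopolysaccharide, rose by 3.12. Daxx, a histone chaperone, rose by 2.75 and was at 0.17 with PAM. Tnfsf10, which encodes TRAIL, rose by 5.65 and was at -0.15 with PAM, a difference of 5.80 ± 0.14 (limma adjusted p = 8.26e-09). Cflar, an inhibitor of death receptor signals, rose by 1.67, and the survival genes Bcl2 and Xiap fell (-1.06 and -0.47). Of 27 p53 targets and sestrins, 7 rose and 7 fell. The sestrins parted: Sesn1 fell by 3.17 and Sesn2, which answers amino acid shortage, rose by 1.01.

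The 40 largest decreases held genes of varied kinds. Mamdc2, a MAM domain protein, and Cmbl, a hydrolase, fell (-4.56 and -3.79), with PAM at -3.96 and -3.88. Epas1, which encodes the hypoxia factor HIF-2 alpha, fell by 2.82 and was at -2.56 with PAM. Slc9a9, a sodium and proton exchanger of endosomes, and Abca9, a lipid transporter, fell (-2.87 and -3.24), beside -2.68 and -2.61. For other genes the ligands were apart. Nrp1, which encodes neuropilin-1, fell by 2.71 and was at -0.83 with PAM, a difference of -1.88 ± 0.07 (limma adjusted p = 8.32e-08). Abcc3, an exporter of organic anions, and Nek6, a mitotic kinase, fell (-2.51 and -2.42), beside -0.73 and -0.91. Emp1, a membrane protein, fell by 2.35 and was at -3.06 with PAM. Over all genes poly I:C exceeded PAM for 2581 (12.9%) and lay below it for 3144 (15.8%).

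**Figure D5:**
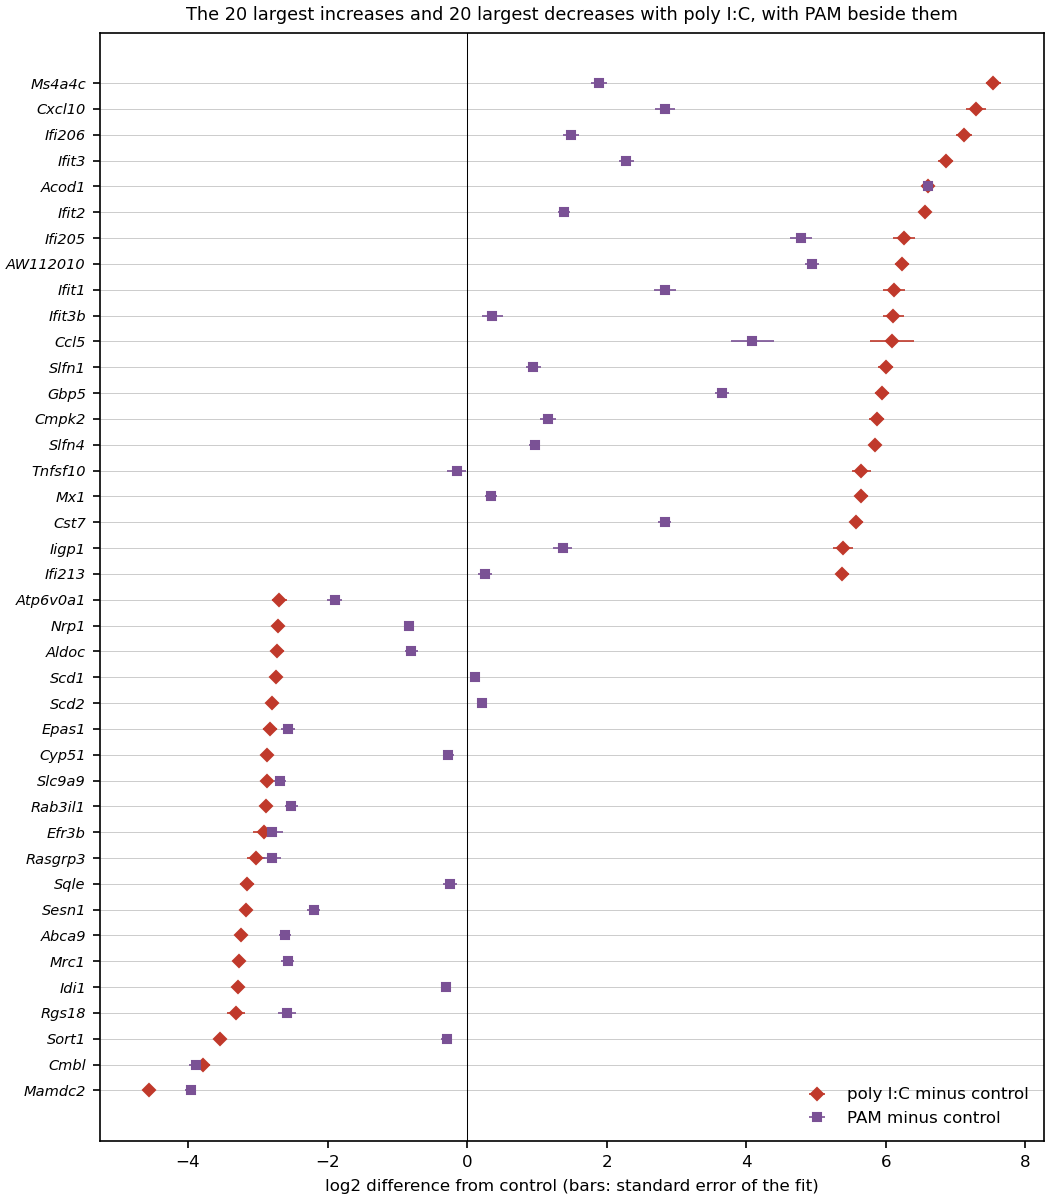
Rows are the 20 largest increases and 20 largest decreases with poly I:C, the x axis is the log2 difference from control, diamonds are poly I:C, squares are PAM, and bars are the standard error of the fit (2 arrays per group). Both differences use the same control arrays; Acod1, Cmbl and Mamdc2 lie at similar values under both ligands, while Tnfsf10, Mx1, Sort1, Idi1, Sqle, Cyp51, Scd1 and Scd2 lie near 0 with PAM.

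Markers of macrophage identity and of other cells were set beside these results. Of 11 macrophage markers 4 rose, namely Fcgr1 (2.65), Aif1 (2.23), Marco (0.65) and Mertk (0.22), and 3 fell. Those that fell were Itgam (-1.49), Cd14 (-1.28) and Adgre1, an adhesion receptor long used as the defining macrophage marker (-0.97). Cd68 (0.13), Csf1r (-0.17) and Lyz2 (-0.13) did not pass. Among resident peritoneal macrophage genes 9 of 22 rose and 7 fell. At least 2-fold, 4 rose and 3 fell, and the largest increase was 2.44, the value given above for Timd4. Gata6, the factor of the resident state, fell (-0.67), as did Fn1, which encodes fibronectin (-1.71), and Cd93 (-2.09). The list as a whole did not move in 1 direction. In the alternative activation list 5 of 22 rose and 7 fell, and Chil3 (-0.14) and Retnla (-0.19) did not pass. Of the T and NK cell markers 1 of 15 rose, Klrk1 (1.61), or 2 without control replicate 1, and of the mast cell markers 1 of 10, Hdc (1.25). B cell markers gave 3 higher and 1 lower of 11, with 1 higher when control replicate 2 or either poly I:C replicate was left out. Neutrophil markers gave 1 higher and 2 lower of 12, and eosinophil markers 1 lower of 6. Dendritic cell markers gave 3 higher, the largest of which was the interferon-inducible Bst2 (3.47), and 1 lower of 11, with 1 higher without poly I:C replicate 2 and 0 lower without control replicate 1 or either poly I:C replicate. The 4 erythroid and platelet markers measured lay between -0.08 (Alas2) and 0.05 (Ppbp) and did not pass. Mesothelial and fibroblast markers gave 6 lower of 15, among them Col3a1 (-0.69) and Upk1b (-0.92), and 3 lower without poly I:C replicate 1. The mean of these 15 markers was 0.11 and -0.11 on the control arrays and -0.22 and -0.19 on the poly I:C arrays. The part of such cells in the decreases described above, Fn1 and the integrins included, was not tested.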

How the data were processed

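Total RNA of 6 samples (2 untreated, 2 poly I:C, 2 PAM) was hybridised to an Affymetrix mouse expression array, per the labels' protocols. The deposited table holds 28815 probes as log2 values from which the authors had subtracted each probe's median over the 6 arrays. The log base was taken as 2, and for summarization, background correction and normalization no source used here names the method. Array medians lay between -0.0049 and 0.0072, and values were used as deposited. Of the probes, 21780 carried 1 gene symbol, 1605 several and 5430 none, and probes of a gene were averaged (998 of 19935 genes had more than 1).

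One mean per group was fitted over all 6 arrays with limma 3.58.1 in R 4.3.3 (lmFit and eBayes, 3 residual and 5.68 prior degrees of freedom). Adjustment was by Benjamini and Hochberg's method over all genes, at a threshold of 0.05. The script was tested on simulated data. Python 3.11.15 with pandas 2.3.3 and matplotlib 3.10.9 did the rest. Genes named were the 40 largest changes in each direction, up to 6 per list and direction, list members that did not pass, and a few always reported. The members and lists were chosen with earlier results of these data known. Replicate numbers were not taken to pair arrays, since the labels give no pairing and deviations of same-numbered arrays correlated at -0.07 between control and poly I:C, -0.01 between poly I:C and PAM and 0.15 between control and PAM.

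Alternatives were the 4 compared arrays alone, the replicate number as a block, centred or quantile-normalized arrays, a robust prior, a 1.5-fold minimum (limma treat), each probe on its own, probes at 8 or above on all arrays, and each array left out.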

Additional observations from a re-analysis of the deposited data

How the results depend on the processing

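The counts of 2421 higher and 3638 lower genes stayed within 1.5 times of these values when the 4 compared arrays, a replicate block, centred or quantile-normalized arrays, a robust prior or single probes were used. Leaving out 1 array at a time gave 1802 to 2875 higher and 2650 to 3713 lower genes, and at 2-fold 540 to 566 and 373 to 458. For poly I:C against PAM it gave 1896 to 2894 and 2298 to 3402, and for lists with more members higher or lower 23 to 25 and 22 to 24. The replicate block gave 2412 higher and 3614 lower genes, of which 2325 and 3518 were among those of the fit without it. The numbers were not taken to pair the arrays, so this is no paired test. When limma treat required a change of at least 1.5-fold, 649 genes were higher and 558 lower, and against PAM 645 and 627. With only probes at 8 or above on all arrays, which leaves fewer genes to test, 1588 were higher, and 286 rose and 203 fell at least 2-fold. In all, 1109 genes were checked in up to 14 alternatives (603 of them with probes at 8 or above). Of these, 2 changed sign and passed in the fit above or in the alternative. Eif2s2 was -0.01 with each probe on its own (0.22 as the mean of its probes). Kmt2d was 0.21 with probes at 8 or above (-0.01 over all of its probes), which follows from the probes kept. Genes that passed in neither fit changed sign more often. These were 21 genes with quantile normalization, 7 with each probe on its own, and more when a control or poly I:C array was left out. A variance trend was not run, since the values hold no level. Signal over background is unknown for probes under 8, so a gene near 0 there may have been below detection.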

Other observations

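Probes outside the gene counts also moved. Of 5430 probes with no gene symbol, 325 passed in limma as higher (5.99%) and 331 as lower (6.1%) on the poly I:C arrays, with 62 and 33 of them at least 2-fold. The largest of these increases was 6.49 and the largest decrease -3.47 on the log2 scale. Of 1605 probes with several gene symbols, 150 were higher (9.35%) and 231 lower (14.4%), 59 and 12 of them at least 2-fold, between -2.09 and 5.88. These probes are not named, since no single gene can be given for them.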
